A study of Homo sapiens with 18 samples.

Results

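The genes described here are 9 that encode or steer the DNA polymerases of damage tolerance and repair. They are the Y-family translesion polymerases POLH, POLK, POLI and REV1, REV3L (the catalytic subunit of polymerase zeta), the ubiquitin ligase RAD18, the end-joining polymerase POLQ, and the X-family repair polymerases POLB and POLL. They were taken by symbol, by a rule that used no measured value, though with earlier results of these data known. They make up 9 of the 27968 gene symbols in the deposited files. All 9 passed the filter on low counts in each of the fits. RNA was sequenced after siRNA transfection from 2 human tumour lines, A549 from lung cancer and MDA-MB-231 from breast cancer. The A549 groups had received siRNA1, siRNA2, siRNA3 (3 separate sequences against BLM) or a control siRNA, and the MDA-MB-231 groups siRNA1 or a control siRNA, with 3 libraries in each of the 6 groups. BLM is a RecQ helicase that dissolves recombination intermediates, and the stated aim was to profile the genes that it regulates in cancer cells. No other agent or engineered allele is named, the time after transfection is not given, and each line is a serum-grown tumour culture. The protocols mention flat and 3D culture without saying which one a library came from.

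Replicative polymerases stall at damaged bases. RAD18 then attaches ubiquitin to the sliding clamp PCNA, and the modified clamp recruits translesion polymerases, which insert bases opposite the lesion (POLH, POLI, POLK, REV1) or extend from the distorted end (POLK, and REV3L with MAD2L2), usually at the cost of fidelity. POLQ anneals short homologies at resected double-strand breaks and fills them in, POLB fills the gap in base excision repair, and POLL fills gaps in non-homologous end joining and base excision repair. POLH, lost in the variant form of xeroderma pigmentosum, copies past ultraviolet damage in human cells.

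The stretches 250 bases long before the annotated start of POLQ, RAD18 and POLH are shown because these 3 genes lay farthest from control with siRNA1 in A549 among the 9 (POLQ and RAD18 lower in both lines, POLH in opposite directions). They come from RefSeq (GRCh38.p14), from which windows of 8 of the 9 genes were used here. They lie on the minus strand at chr3:121545989-121546238 for POLQ, on the minus strand at chr3:8963473-8963722 for RAD18 and on the plus strand at chr6:43575935-43576184 for POLH. Capitals mark motif letters found on either strand, which in these windows were only the SP1 box GGGCGG and, in POLQ, the cell-cycle homology region letters TTTGAA. The last line spans the POLQ start, with 20 bases before it and 10 after (chr3:121545979-121546008, minus strand).
POLQ: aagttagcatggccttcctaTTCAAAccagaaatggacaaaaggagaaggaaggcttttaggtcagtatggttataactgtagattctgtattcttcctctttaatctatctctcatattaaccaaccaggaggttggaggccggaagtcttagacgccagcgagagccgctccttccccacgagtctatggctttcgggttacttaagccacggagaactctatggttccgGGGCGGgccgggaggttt
RAD18: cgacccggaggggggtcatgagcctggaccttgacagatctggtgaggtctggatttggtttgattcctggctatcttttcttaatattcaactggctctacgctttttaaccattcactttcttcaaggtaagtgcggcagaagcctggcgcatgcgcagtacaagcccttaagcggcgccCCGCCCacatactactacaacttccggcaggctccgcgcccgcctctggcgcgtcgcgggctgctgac
POLH: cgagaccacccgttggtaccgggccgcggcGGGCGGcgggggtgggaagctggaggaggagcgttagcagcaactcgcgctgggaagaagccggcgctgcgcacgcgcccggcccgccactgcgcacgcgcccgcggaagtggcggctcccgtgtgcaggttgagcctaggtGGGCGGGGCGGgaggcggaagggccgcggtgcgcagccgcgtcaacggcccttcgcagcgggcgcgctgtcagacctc
POLQ start: cgGGGCGGgccgggaggtttgagTTTGAAg

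The GC content of these windows was 48.4% for POLQ, 56.8% for RAD18 and 76% for POLH. TTTGAA was found before the start in POLQ alone of the 8 genes, on the reverse strand at position -230 from the start, and again on the forward strand from base 4 after the start. These letters stood in 13.3% of all 35116 promoter windows of the same length. GGGCGG was present in 6 of the 8 genes (POLH, POLK, REV1, REV3L, POLQ and RAD18), against 42.6% of all windows. The E2F letters TTTCCCGC occurred in POLI and in 1 of the 2 windows of REV3L (1.39% of windows), and the E-box CACGTG in POLI and REV1 (6.34%). REV3L and POLL had 2 windows each, and a gene was counted if either held the letters, whereas the shares are per window. CCAAT was in none of the 10 windows of the 8 genes before the start, against 32% of all windows. TTTGGCGC and TTTCGCGC were also in none. A match is a match of letters only.

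The libraries held 30143047 to 40328208 expected counts, and BLM mRNA fell in each siRNA group, to 1.52%, 13.6% and 8.30% of A549 control with siRNA1, siRNA2 and siRNA3, and to 14.7% of its own control in MDA-MB-231. The third A549 siRNA3 library stood apart. The SD of its log2 deviations from its group mean was 0.251, against 0.0897 to 0.167 in the other libraries, and these deviations followed gene length (Spearman rho -0.685 across 14074 genes, which are not independent replicates). In that library the 4 longest of the 9 genes (REV3L, POLK, POLQ and POLH) had the lowest level of their group, and the 3 shortest (REV1, POLL and POLB) the highest. The A549 comparisons were refitted without it, and the cause of its difference was not tested. Values without it are given where a call or the direction changed, and for POLK, POLQ and POLB with siRNA3. In bulk RNA, fewer cells of a kind and less RNA per cell cannot be told apart. The labels do not say whether replicate libraries stem from separate cultures, so p-values here reflect only library-to-library spread, perhaps technical.

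All 5 epithelial markers averaged 1 TPM or more in every group, and summed to 13100 to 15000 TPM with siRNA1, 6690 to 6940 TPM with siRNA2 and 5140 to 5470 TPM with siRNA3, against 5120 to 5360 TPM in A549 control, and to 1460 to 1610 TPM with siRNA1, against 1670 to 1980 TPM in MDA-MB-231 control. The 4 mesenchymal markers summed to 1810 to 1890 TPM with siRNA1, 1840 to 1900 TPM with siRNA2 and 1900 to 1960 TPM with siRNA3, against 930 to 1030 TPM in A549 control, and to 2190 to 2260 TPM with siRNA1, against 3060 to 3110 TPM in MDA-MB-231 control. The 6 fibroblast markers summed to 11.3 to 12.9 TPM with siRNA1, 14.9 to 16.3 TPM with siRNA2 and 5.57 to 9.57 TPM with siRNA3, against 1.76 to 1.88 TPM in A549 control, and to 8.88 to 9.65 TPM with siRNA1, against 6.8 to 7.38 TPM in MDA-MB-231 control. From 1 to 3 of the 6 reached 1 TPM in a group, and DCN averaged under 0.1 TPM in all 6 groups. The 5 leukocyte markers summed to 1.89 to 8.63 TPM in the A549 libraries and 11.2 to 15 TPM in those of MDA-MB-231, with 1 of the 5 at 1 TPM or more in the A549 groups and 2 in the MDA-MB-231 groups, while PTPRC and CD3E averaged under 0.1 TPM in all 6 groups. The 5 alveolar type 2 markers summed to 1.3 to 1.49 TPM with siRNA1, 0.42 to 0.47 TPM with siRNA2 and 0.29 to 0.48 TPM with siRNA3, against 0.21 to 0.36 TPM in A549 control, and to 0.57 to 0.89 TPM with siRNA1, against 1.42 to 1.63 TPM in MDA-MB-231 control. At most 1 of them reached 1 TPM in a group, and the surfactant genes SFTPB, SFTPA1 and SFTPA2 averaged under 0.1 TPM in all 6 groups. The 5 luminal breast markers summed to 84.9 to 92.5 TPM with siRNA1, 74.4 to 82.8 TPM with siRNA2 and 46 to 62.3 TPM with siRNA3, against 40.8 to 45.7 TPM in A549 control, and to 29.8 to 30.6 TPM with siRNA1, against 31.3 to 32.4 TPM in MDA-MB-231 control, with PGR under 0.1 TPM in all 6 groups. The part of these markers in the results was not tested.

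In A549, 6 of the 9 genes changed with siRNA1 (3 higher, 3 lower), 6 with siRNA2 (2 higher, 4 lower) and 5 with siRNA3 (1 higher, 4 lower). The share of all tested genes that changed was 71.7% with siRNA1, 60.9% with siRNA2 and 61.3% with siRNA3. In MDA-MB-231, 6 of the 9 changed with siRNA1 (3 higher, 3 lower), where 55.3% of all tested genes did. These counts, 5 or 6 of 9, were near the background shares. Changes are calls at a Benjamini-Hochberg adjusted p under 0.05 over all genes in edgeR's quasi-likelihood test, fold changes are log2 with a standard error, and levels are CPM, counts scaled to a common library total with TMM factors. The median log2 fold change of the 9 genes was 0.11, -0.15 and 0.04 with siRNA1, siRNA2 and siRNA3 in A549 and -0.09 in MDA-MB-231, against 0.09, 0.04, 0.0025 and 0.01 over all tested genes. Only POLQ and RAD18 among the 9 fell in all 4 comparisons with control, and none rose in all 4. The share of all tested genes that fell or rose in all 4 was not counted, here or for the lists below.

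**Figure D1:**
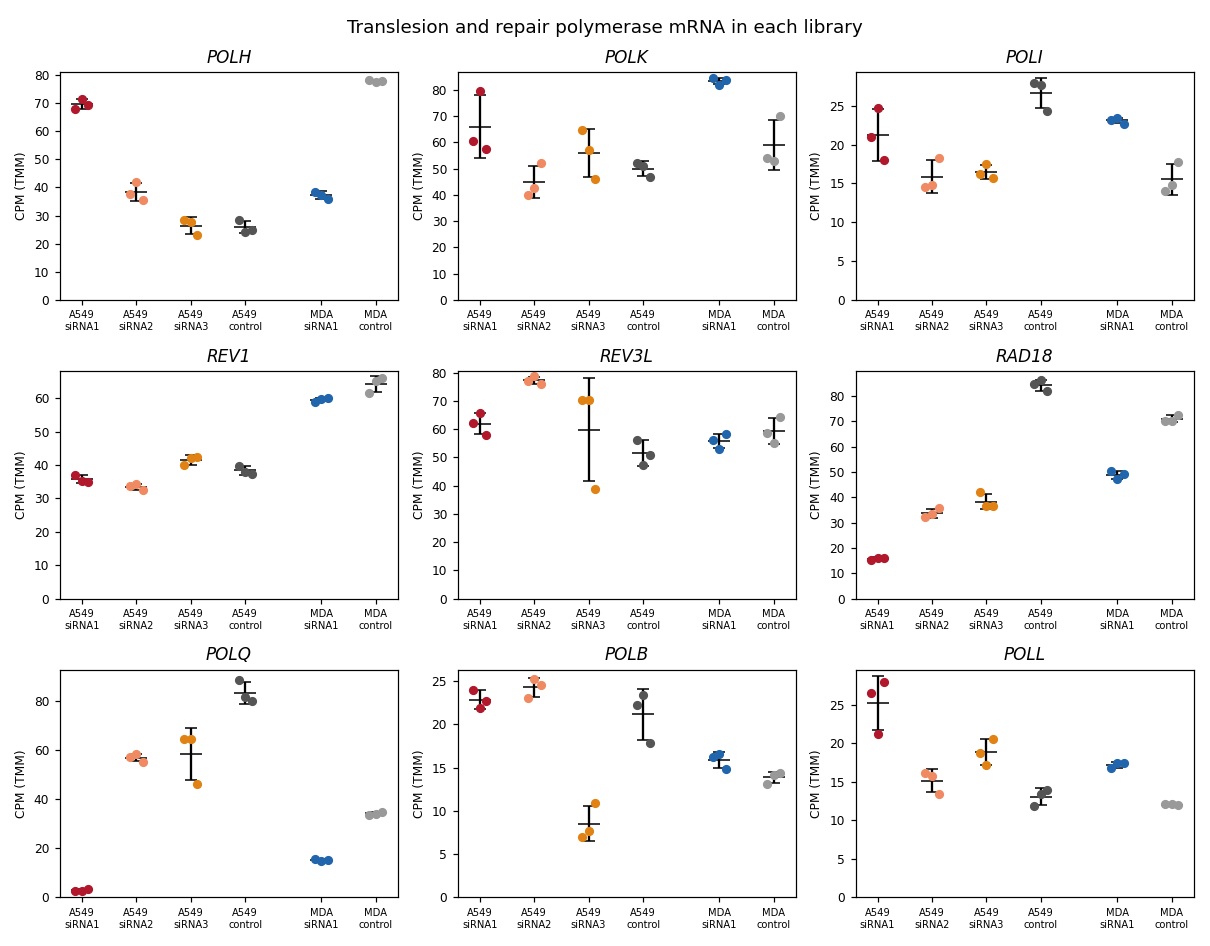
CPM of each gene in every library (points), with the group mean and SD (n = 3), for the siRNA groups left of the control of the same line. POLQ lay between 2.69 and 3.52 CPM in the 3 A549 siRNA1 libraries and between 79.9 and 88.3 CPM in the A549 control libraries.

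POLH, which bypasses ultraviolet photoproducts accurately, moved in opposite directions in the 2 lines. It had 67.9, 71.6 and 69.5 CPM with siRNA1, 37.6, 41.9 and 35.6 CPM with siRNA2 and 28.4, 27.8 and 23.1 CPM with siRNA3 in A549, against 28.3, 24.2 and 24.9 CPM in A549 control. MDA-MB-231 cells had 38.5, 37.3 and 35.8 CPM with siRNA1, against 78.4, 77.5 and 77.8 CPM in control. The siRNA1 and siRNA2 groups of A549 lay wholly above control, the siRNA3 group overlapped it, and the MDA-MB-231 siRNA1 group lay wholly below its control. POLH rose by a log2 fold change of 1.43 ± 0.10 with siRNA1 (edgeR adjusted p = 1.75e-08) and 0.57 ± 0.10 with siRNA2 (adjusted p = 0.000174), and its value with siRNA3 was 0.04 ± 0.10 (adjusted p = 0.761). It fell in MDA-MB-231, with a log2 fold change of -1.07 ± 0.05 (adjusted p = 2.65e-07). Between the A549 siRNAs, POLH was higher with siRNA1 than with siRNA2 (0.86 ± 0.10, adjusted p = 4.94e-06), higher with siRNA1 than with siRNA3 (1.40 ± 0.10, adjusted p = 3.25e-08) and higher with siRNA2 than with siRNA3 (0.54 ± 0.10, adjusted p = 0.000324).

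POLK, which extends from mismatched ends and bypasses bulky adducts, was higher with siRNA1 in both lines. It had 60.5, 79.7 and 57.5 CPM with siRNA1, 40.1, 42.8 and 52.0 CPM with siRNA2 and 64.6, 57.2 and 46.2 CPM with siRNA3 in A549, against 52.3, 51.0 and 46.8 CPM in control. It had 84.5, 82.1 and 83.7 CPM with siRNA1 in MDA-MB-231, against 54.0, 52.8 and 70.0 CPM in control. The siRNA1 groups lay above control in both lines, and the siRNA2 and siRNA3 groups overlapped control. POLK rose by 0.40 ± 0.14 with siRNA1 in A549 (edgeR adjusted p = 0.0231) and by 0.50 ± 0.10 in MDA-MB-231 (adjusted p = 0.00169). The A549 call was lost without siRNA1 replicate 2 (0.24, adjusted p = 0.132), without control replicate 3 (adjusted p = 0.081) and without siRNA3 replicate 2 (adjusted p = 0.0569). Its log2 fold changes with siRNA2 and siRNA3 were -0.15 ± 0.14 (adjusted p = 0.374) and 0.16 ± 0.14 (adjusted p = 0.338), and the siRNA3 value without siRNA3 replicate 3 was 0.29 ± 0.14 (adjusted p = 0.083).

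POLI, an error-prone polymerase that partners with POLH at stalled forks, was lower with the 3 siRNAs in A549 and higher with siRNA1 in MDA-MB-231. It had 21.0, 24.7 and 18.04 CPM with siRNA1, 14.6, 14.8 and 18.3 CPM with siRNA2 and 16.2, 17.5 and 15.7 CPM with siRNA3, against 27.9, 27.7 and 24.4 CPM in A549 control. In MDA-MB-231 it had 23.2, 23.4 and 22.7 CPM with siRNA1, against 14.1, 14.8 and 17.8 CPM in control. Only the A549 siRNA1 group overlapped its control, by 1 library on each side. POLI fell with siRNA2 (-0.75 ± 0.12, edgeR adjusted p = 0.000124) and siRNA3 (-0.69 ± 0.12, adjusted p = 0.000231) and rose in MDA-MB-231 (0.57 ± 0.09, adjusted p = 0.000441). The fall with siRNA1 in A549 was -0.33 ± 0.12 (adjusted p = 0.0246). That call was lost on the TPM scale (-0.07, adjusted p = 0.648 by limma) and without siRNA1 replicate 1 or 3 or control replicate 1 or 2 (adjusted p = 0.0643, 0.118, 0.0765 and 0.0696). TPM values were compared without TMM factors, here and below. Over all genes their log2 fold changes shifted from the main values by a median of 0.236 with siRNA1 in A549.

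REV1, the deoxycytidyl transferase that scaffolds the other translesion polymerases, stayed within a log2 fold change of 0.20 of control in all 4 comparisons. It had 37.1, 35.1 and 34.9 CPM with siRNA1, 33.7, 34.3 and 32.5 CPM with siRNA2 and 39.9, 42.3 and 42.5 CPM with siRNA3, against 39.8, 38.0 and 37.4 CPM in A549 control. It had 59.0, 59.9 and 60.0 CPM with siRNA1 in MDA-MB-231, against 61.5, 65.1 and 66.0 CPM in control. The siRNA1 and siRNA2 groups lay below control and the siRNA3 group above it, by narrow margins. REV1 fell with siRNA2 (-0.20 ± 0.07, edgeR adjusted p = 0.0212), a call lost on TPM (-0.08, adjusted p = 0.392 by limma), without siRNA2 replicate 1 or 3 (adjusted p = 0.0511 and 0.0696) and without control replicate 1 (adjusted p = 0.0802). Its log2 fold changes were -0.10 ± 0.07 with siRNA1 (adjusted p = 0.177), 0.11 ± 0.07 with siRNA3 (adjusted p = 0.156) and -0.11 ± 0.05 in MDA-MB-231 (adjusted p = 0.114).

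REV3L, the very large catalytic subunit of polymerase zeta, was higher with siRNA2 in A549. It had 62.2, 65.7 and 58.0 CPM with siRNA1, 77.1, 78.7 and 76.1 CPM with siRNA2 and 70.2, 70.4 and 38.7 CPM with siRNA3, against 56.2, 47.1 and 50.9 CPM in A549 control. In MDA-MB-231 it had 56.2, 53.1 and 58.2 CPM with siRNA1, against 58.7, 55.2 and 64.3 CPM in control. The siRNA1 and siRNA2 groups lay above A549 control, the siRNA3 group held the highest of these levels save siRNA2 in 2 libraries and the lowest of all in replicate 3, and the MDA-MB-231 groups overlapped. REV3L rose with siRNA2 (0.59 ± 0.17, edgeR adjusted p = 0.00848), while its values were 0.27 ± 0.17 with siRNA1 (adjusted p = 0.17), 0.22 ± 0.17 with siRNA3 (adjusted p = 0.284) and -0.09 ± 0.07 in MDA-MB-231 (adjusted p = 0.288). Without siRNA3 replicate 3, in the same A549 fit, the siRNA3 value was 0.45 ± 0.08 (adjusted p = 0.000251), the siRNA1 value 0.27 ± 0.07 (adjusted p = 0.00425) and the siRNA2 value 0.59 ± 0.07 (adjusted p = 8.94e-06). MAD2L2, the partner subunit of REV3L, fell in A549 with siRNA1 (-0.63 ± 0.12), siRNA2 (-1.60 ± 0.12) and siRNA3 (-0.64 ± 0.12), and its value in MDA-MB-231 was 0.11 ± 0.06 (adjusted p = 0.15).

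RAD18, the ligase that monoubiquitinates PCNA, fell with every siRNA in both lines. It had 15.3, 16.0 and 16.1 CPM with siRNA1, 32.1, 33.3 and 35.7 CPM with siRNA2 and 41.9, 36.5 and 36.6 CPM with siRNA3, against 84.7, 86.2 and 81.8 CPM in A549 control. Its levels in MDA-MB-231 were 50.5, 47.2 and 49.1 CPM with siRNA1, against 70.2, 70.2 and 72.7 CPM in control. No siRNA group overlapped its control, and the siRNA1 group of A549 lay wholly below the siRNA2 and siRNA3 groups. Its log2 fold changes were -2.42 ± 0.08 with siRNA1 (edgeR adjusted p = 1.39e-11), -1.32 ± 0.08 with siRNA2 (adjusted p = 1.24e-08), -1.13 ± 0.08 with siRNA3 (adjusted p = 3.91e-08) and -0.54 ± 0.05 in MDA-MB-231 (adjusted p = 2.12e-05). RAD18 thus stood at 18.8% of control with siRNA1 in A549 and at 68.9% in MDA-MB-231. RAD18 was lower with siRNA1 than with siRNA2 (-1.09 ± 0.08, adjusted p = 7.6e-08) or siRNA3 (-1.28 ± 0.08, adjusted p = 9.83e-09). The difference between siRNA2 and siRNA3 (-0.19 ± 0.08, adjusted p = 0.0493) was lost on TPM (-0.07, adjusted p = 0.594 by limma), with the 2 groups fitted alone (adjusted p = 0.126) and without any of 8 of the 12 libraries left out in turn (adjusted p up to 0.217).

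POLQ, the polymerase of microhomology-mediated end joining, also fell with every siRNA, and by far the most with siRNA1 in A549. It had 2.76, 2.69 and 3.52 CPM with siRNA1 (101 to 129 expected counts per library), 57.1, 58.2 and 55.2 CPM with siRNA2 and 64.3, 64.5 and 46.3 CPM with siRNA3, against 88.3, 81.5 and 79.9 CPM in A549 control. MDA-MB-231 libraries held 15.5, 14.9 and 15.2 CPM with siRNA1, against 33.6, 34.0 and 34.7 CPM in control. No siRNA group overlapped its control, and the siRNA2 and siRNA3 groups overlapped each other. POLQ stood at 3.59% of control with siRNA1 (log2 fold change -4.80 ± 0.15, edgeR adjusted p = 6.05e-12), at 68.3% with siRNA2 (-0.55 ± 0.12, adjusted p = 0.00119) and at 70.1% with siRNA3 (-0.51 ± 0.12, adjusted p = 0.00201; -0.37 ± 0.08, adjusted p = 0.00176, without siRNA3 replicate 3). In MDA-MB-231 it stood at 44.6% (-1.17 ± 0.06, adjusted p = 2.55e-07). POLQ was lower with siRNA1 than with siRNA2 (-4.25 ± 0.15, adjusted p = 3.73e-11) or siRNA3 (-4.29 ± 0.15, adjusted p = 2.8e-11), and the value between siRNA2 and siRNA3 was -0.04 ± 0.12 (adjusted p = 0.797). The 18 genes listed for proliferation moved beside it. Their summed level was 310.0 to 312.9 TPM with siRNA1, 1655 to 1710 TPM with siRNA2 and 1341 to 1551 TPM with siRNA3, against 2537 to 2650 TPM in A549 control, and 1144 to 1225 TPM with siRNA1 in MDA-MB-231, against 2963 to 3011 TPM in control. All 18 fell with siRNA1 in both lines, and 16 fell with siRNA2 and 16 with siRNA3. Of all tested genes, 32.8%, 28.4% and 30.4% fell with siRNA1, siRNA2 and siRNA3 in A549 and 27.8% in MDA-MB-231. The median log2 fold changes of the 18 were -4.75, -0.63 and -0.86 for the A549 siRNAs and -1.29 for MDA-MB-231. The part of cell division in the POLQ and RAD18 levels was not tested.

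POLB, the gap-filling polymerase of base excision repair, fell with siRNA3 and passed the test with no other siRNA. It had 24.0, 21.8 and 22.7 CPM with siRNA1, 23.0, 25.2 and 24.5 CPM with siRNA2 and 7.00, 7.71 and 10.9 CPM with siRNA3, against 22.2, 23.3 and 17.8 CPM in A549 control. In MDA-MB-231 it had 16.2, 16.6 and 14.8 CPM with siRNA1, against 13.1, 14.2 and 14.3 CPM in control. The siRNA3 libraries were the 3 lowest A549 libraries, and the siRNA1 and siRNA2 groups overlapped control. POLB fell to 40.3% of control with siRNA3 (log2 fold change -1.31 ± 0.15, edgeR adjusted p = 4.07e-06), and its values were 0.11 ± 0.14 with siRNA1 (adjusted p = 0.473) and 0.20 ± 0.14 with siRNA2 (adjusted p = 0.225). The differences themselves passed the test: POLB was higher with siRNA1 than with siRNA3 (1.42 ± 0.15, adjusted p = 1.38e-06) and higher with siRNA2 than with siRNA3 (1.51 ± 0.15, adjusted p = 1.1e-06). Without siRNA3 replicate 3 the fall was -1.52 ± 0.12. The value in MDA-MB-231 was 0.20 ± 0.08 (adjusted p = 0.0527), with groups that did not overlap. On the TPM scale POLB was called higher with siRNA1 (0.36, adjusted p = 0.00699 by limma) and siRNA2 (0.29, adjusted p = 0.0302) in A549 and with siRNA1 in MDA-MB-231 (0.25, adjusted p = 0.0117). On that scale, without TMM factors, all genes shifted from their main values by a median of 0.236, 0.086 and 0.072 in these 3 comparisons.

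POLL, the gap-filling polymerase of end joining, rose with siRNA1 in both lines and with siRNA3. It had 26.5, 21.2 and 27.9 CPM with siRNA1, 16.2, 15.8 and 13.4 CPM with siRNA2 and 18.7, 17.2 and 20.6 CPM with siRNA3, against 11.9, 13.4 and 13.9 CPM in A549 control. In MDA-MB-231 it had 16.8, 17.4 and 17.4 CPM with siRNA1, against 12.1, 12.1 and 11.98 CPM in control. Only the siRNA2 group overlapped its control. The log2 fold changes were 0.95 ± 0.12 with siRNA1 (edgeR adjusted p = 7.09e-06), 0.21 ± 0.12 with siRNA2 (adjusted p = 0.139), 0.53 ± 0.12 with siRNA3 (adjusted p = 0.00165) and 0.52 ± 0.07 in MDA-MB-231 (adjusted p = 0.000135). POLL was higher with siRNA1 than with siRNA2 (0.73 ± 0.12, adjusted p = 0.000127) or siRNA3 (0.42 ± 0.12, adjusted p = 0.00584), the second of which was lost without siRNA3 replicate 2 (0.28, adjusted p = 0.0769).

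**Figure D2:**
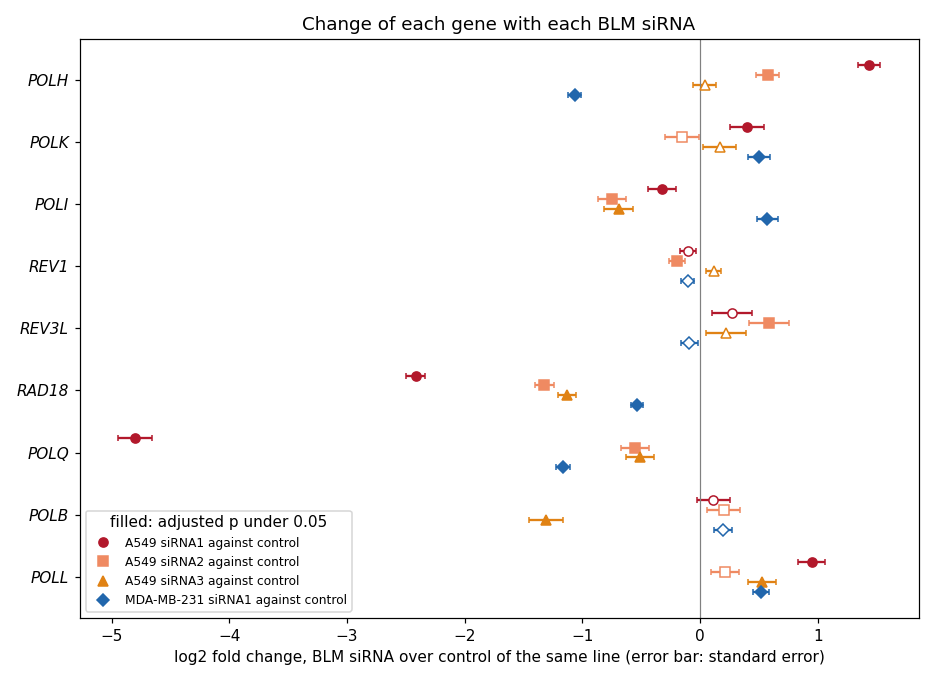
Log2 fold change of each gene, BLM siRNA over the control of the same line, with its standard error. Filled symbols passed an adjusted p under 0.05. RAD18 and POLQ lie left of 0 in all 4 comparisons, and POLB does so with siRNA3 alone (-1.31).

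The 3 siRNAs shared 1 control group in A549, so their values against it are not independent, and the siRNAs were also set against each other. Of the 9 genes, 6 differed between siRNA1 and siRNA2, 7 between siRNA1 and siRNA3 and 5 between siRNA2 and siRNA3. The shares of all tested genes were 56.0%, 66.6% and 59.0%. REV1 was lower with siRNA1 than with siRNA3 (-0.22 ± 0.07, edgeR adjusted p = 0.0108) and lower with siRNA2 than with siRNA3 (-0.31 ± 0.07, adjusted p = 0.00131). On TPM the first of these turned to 0.05 (adjusted p = 0.616 by limma), and with the 2 groups alone it was lost (adjusted p = 0.0746). The second was -0.19 on TPM (adjusted p = 0.0504). POLK and POLI were higher with siRNA1 than with siRNA2 (0.55 ± 0.14, adjusted p = 0.00504, and 0.42 ± 0.12, adjusted p = 0.00941). POLI was also higher with siRNA1 than with siRNA3 (0.37 ± 0.12, adjusted p = 0.0169), a call lost with no filter (adjusted p = 0.0516) and without siRNA1 replicate 2 or siRNA3 replicate 2 (adjusted p = 0.0849 and 0.0564). POLL was lower with siRNA2 than with siRNA3 (-0.31 ± 0.12, adjusted p = 0.0347), lost without siRNA3 replicate 3 (-0.25, adjusted p = 0.101), without siRNA2 replicate 3 (-0.23, adjusted p = 0.138), on TPM (-0.15, adjusted p = 0.265), and without siRNA2 replicate 2 or siRNA3 replicate 1 (adjusted p = 0.0527 and 0.0619). REV3L was -0.32 ± 0.17 between siRNA1 and siRNA2 (adjusted p = 0.126), 0.05 ± 0.17 between siRNA1 and siRNA3 (adjusted p = 0.804) and 0.37 ± 0.17 between siRNA2 and siRNA3 (adjusted p = 0.0763). Without siRNA3 replicate 3 these were -0.32 (adjusted p = 0.00163), -0.18 (adjusted p = 0.0561) and 0.14 (adjusted p = 0.163). Between siRNA2 and siRNA3, REV3L passed the test without siRNA3 replicate 1 (0.50, adjusted p = 0.0326) or 2 (0.46, adjusted p = 0.0411) and with all 18 libraries (0.37, adjusted p = 0.0333). Between siRNA1 and siRNA2 it passed with all 18 libraries (-0.34, adjusted p = 0.0495) and with the 2 groups alone (-0.30, adjusted p = 0.00329). POLK did not pass between siRNA2 and siRNA3 (-0.32 ± 0.14, adjusted p = 0.0731) but did so without siRNA3 replicate 3 (-0.44, adjusted p = 0.0129), siRNA2 replicate 3 (-0.44, adjusted p = 0.0295) or siRNA1 replicate 2 (-0.32, adjusted p = 0.0391), with no filter (-0.35, adjusted p = 0.0423) and in DESeq2 (-0.33, adjusted p = 0.048). On TPM POLK passed between siRNA1 and siRNA3 (0.46, adjusted p = 0.0413 by limma) and REV1 between siRNA1 and siRNA2 (0.24, adjusted p = 0.0192).

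siRNA1, taken from its name to be the same molecule in both lines, was compared between them as an interaction, the log2 fold change in A549 minus that in MDA-MB-231. Of the 9 genes, 6 differed, 3 in each direction, where 57.8% of all tested genes did. POLH had the largest positive difference of the 9, 2.54 ± 0.10 (edgeR adjusted p = 8.68e-12), and POLQ the largest negative one, -3.59 ± 0.12 (adjusted p = 3.09e-12), followed by RAD18 at -1.83 ± 0.08 (adjusted p = 6.27e-11). POLI differed by -0.85 ± 0.16 (adjusted p = 0.000243), with opposite signs in the lines. POLL differed by 0.48 ± 0.14 (adjusted p = 0.00762), a call lost without MDA-MB-231 control replicate 2 (0.35, adjusted p = 0.0547) or siRNA1 replicate 1 (0.34, adjusted p = 0.0617). REV3L differed by 0.40 ± 0.11 (adjusted p = 0.00689), a call lost without MDA-MB-231 siRNA1 replicate 1 or 2 (0.29 and 0.25, adjusted p = 0.0646 and 0.1) and with all 18 libraries in the fit (0.29, adjusted p = 0.239). POLK, REV1 and POLB had -0.06 ± 0.17, 0.05 ± 0.09 and -0.04 ± 0.13 (adjusted p = 0.8, 0.669 and 0.842). BLM itself stood at 1.52% of control in A549 and 14.7% in MDA-MB-231, so the depth of the knockdown differed between the lines too, and its part in these differences was not tested.

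**Figure D3:**
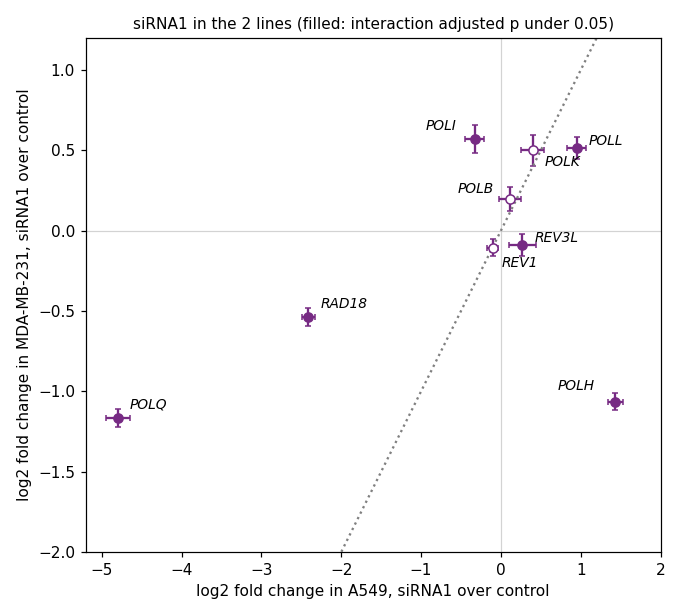
Log2 fold change with siRNA1 in A549 (x) and MDA-MB-231 (y), with standard errors. The dotted line marks equal change and filled points passed the interaction test. POLH lies at 1.43 in A549 and -1.07 in MDA-MB-231, and POLQ and RAD18 lie far left of the line of equal change.

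With control siRNA the lines differed in 6 of the 9 genes, where 81.0% of all tested genes did. A549 control was higher than MDA-MB-231 control for POLQ (log2 1.34 ± 0.08, edgeR adjusted p = 1.42e-10), POLI (0.83 ± 0.11, adjusted p = 4.77e-06), POLB (0.66 ± 0.10, adjusted p = 1.07e-05) and RAD18 (0.30 ± 0.06, adjusted p = 0.000144), and lower for POLH (-1.54 ± 0.07, adjusted p = 5.98e-12) and REV1 (-0.69 ± 0.06, adjusted p = 2.86e-08). The RAD18 call was lost on TPM (0.03, adjusted p = 0.64 by limma). The values of POLK, REV3L and POLL were -0.18 ± 0.12, -0.15 ± 0.08 and 0.17 ± 0.10 (adjusted p = 0.161, 0.0921 and 0.119). POLK (-0.40, adjusted p = 0.0178) and REV3L (-0.38, adjusted p = 0.0037) passed the test on TPM, and REV3L also without A549 control replicate 1 (-0.22, adjusted p = 0.0272). POLL passed with all 18 libraries (0.27, adjusted p = 0.0268) and without any 1 of 5 libraries (A549 siRNA1 replicate 2, MDA-MB-231 control replicate 2 and each MDA-MB-231 siRNA1 library, 0.17 to 0.28, adjusted p = 0.0221 to 0.0428), and turned to -0.09 on TPM (adjusted p = 0.383). The labels give no batch, so line and batch cannot be told apart.

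Compared per length, in the deposited TPM values, POLB averaged 42.3 ± 1.13 with siRNA1, 40.1 ± 2.19 with siRNA2 and 12.96 ± 1.68 with siRNA3, against 32.8 ± 3.94 in A549 control (SD, n = 3 each, here and below). It was the most abundant of the 9 in each of these groups except siRNA3, where its range overlapped those of REV1 (15.7 ± 1.22) above it and RAD18 (12.4 ± 2.04) below it. POLQ ranked last with siRNA1 in A549 (0.750 ± 0.104) and was the third in A549 control (17.4 ± 1.25). It was last in MDA-MB-231 with siRNA1 (3.89 ± 0.138) and the eighth in control (8.28 ± 0.419). RAD18 was the eighth with siRNA1 in A549 (6.12 ± 0.295) and the second in control (27.3 ± 0.575). POLH was the third with siRNA1 in A549 (18.3 ± 1.02) and the lowest of the 9 in control (5.65 ± 0.605). In A549 control the TPM ranges of POLI, REV3L and POLK overlapped (8.74 ± 0.42, 8.69 ± 1.00 and 8.66 ± 0.502), and every other pair of neighbours was apart. In MDA-MB-231 control REV1 (28.2 ± 1.81) and RAD18 (26.7 ± 1.44) overlapped, as did RAD18 and POLB (24.9 ± 1.36), and POLL, POLK and REV3L (12.2 ± 1.01, 11.9 ± 2.37 and 11.6 ± 1.33).

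Across the 6 groups, POLQ in TPM ran, low to high, from A549 siRNA1 through MDA-MB-231 siRNA1, MDA-MB-231 control, A549 siRNA3 (12.3 ± 3.26) and siRNA2 (12.8 ± 0.0854) to A549 control, and siRNA3 overlapped both of its neighbours. RAD18 ran from A549 siRNA1 through the overlapping siRNA2 (11.7 ± 0.907) and siRNA3 groups and MDA-MB-231 siRNA1 (19.4 ± 0.93) to both controls, which overlapped. For POLH, A549 siRNA1 overlapped MDA-MB-231 control, the highest (19.8 ± 0.72). MDA-MB-231 siRNA1 (9.96 ± 0.425) overlapped A549 siRNA2 (8.99 ± 0.585), and A549 siRNA3 (5.81 ± 1.18) overlapped A549 control. For POLK and POLI each neighbour in the order overlapped the next.

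The 14 listed partners of translesion synthesis, genes that act on PCNA or beside the polymerases, were mostly lower. In A549, 12 fell and none rose with siRNA1, 10 fell and none rose with siRNA2, and 13 fell and none rose with siRNA3. In MDA-MB-231, 8 fell and 2 rose (UBE2B, 0.38 ± 0.12, and WDR48, 0.40 ± 0.06). Of all tested genes, 32.8%, 28.4%, 30.4% and 27.8% fell in these comparisons. The list's median log2 fold changes were -0.96, -0.63, -0.80 and -0.48, and ATAD5, DTL, HLTF, PCNA, PRIMPOL, RFWD3 and USP1 fell in all 4. DTL, the substrate receptor that marks PCNA-bound proteins for destruction, had log2 fold changes of -4.87 ± 0.10 with siRNA1, -0.98 ± 0.08 with siRNA2, -0.85 ± 0.08 with siRNA3 and -0.78 ± 0.05 in MDA-MB-231. USP1, which removes ubiquitin from PCNA, had -2.52 ± 0.13, -1.12 ± 0.13, -0.83 ± 0.13 and -0.52 ± 0.05 in the same order. PCLAF, a PCNA-binding factor, had -5.38 ± 0.13, -0.18 ± 0.10, -0.80 ± 0.10 and -1.56 ± 0.08, the siRNA2 value not passing the test (edgeR adjusted p = 0.13).

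Of the 12 replicative polymerase subunits, 11 fell with siRNA1, 9 with siRNA2 and 9 with siRNA3 in A549, and 10 in MDA-MB-231, with medians of -1.61, -0.75, -0.52 and -0.81. The shares of all tested genes that fell were 32.8%, 28.4%, 30.4% and 27.8%, and 39%, 32.5%, 30.9% and 27.5% rose. POLE2, an accessory subunit of polymerase epsilon, had -4.19 ± 0.12, -1.48 ± 0.10, -1.77 ± 0.10 and -1.15 ± 0.07, and PRIM1, the catalytic primase subunit, -3.72 ± 0.11, -1.37 ± 0.09, -1.33 ± 0.09 and -0.97 ± 0.08. POLD4, the small subunit of polymerase delta, was the 1 that rose in each comparison, by 1.41 ± 0.13, 0.47 ± 0.13, 1.32 ± 0.13 and 0.50 ± 0.10. Of the 5 other DNA polymerases, 4 were tested and DNTT did not pass the filter. With siRNA1 1 rose and 1 fell, with siRNA2 and with siRNA3 2 fell and none rose, and in MDA-MB-231 1 rose and 1 fell. POLN, a translesion polymerase, rose with siRNA1 in A549 (1.71 ± 0.24, edgeR adjusted p = 1.96e-05) and in MDA-MB-231 (0.87 ± 0.33, adjusted p = 0.0473), at averages of 3.89 CPM against 1.19 CPM in A549 control and 0.542 CPM against 0.291 CPM in MDA-MB-231 control, and had 0.23 ± 0.26 with siRNA2 and -0.05 ± 0.27 with siRNA3. POLM, an end-joining polymerase, fell with siRNA3 (-0.84 ± 0.13, adjusted p = 7.9e-05) and had -0.16 ± 0.12 with siRNA1, 0.03 ± 0.12 with siRNA2 and 0.06 ± 0.08 in MDA-MB-231. POLG, the mitochondrial polymerase, fell with siRNA2 (-0.39 ± 0.13, adjusted p = 0.0203) and in MDA-MB-231 (-0.15 ± 0.06, adjusted p = 0.042) and had 0.06 ± 0.13 with siRNA1 and 0.19 ± 0.13 with siRNA3. POLG2, an accessory subunit of the mitochondrial polymerase, fell with the 3 siRNAs in A549 (-1.05 ± 0.10, -0.93 ± 0.10 and -0.91 ± 0.10) and had 0.16 ± 0.07 in MDA-MB-231 (edgeR adjusted p = 0.091).

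Among 21 base excision repair genes, the setting of POLB, 15, 15 and 14 fell with siRNA1, siRNA2 and siRNA3 in A549, and 2, 2 and 3 rose. In MDA-MB-231, 11 fell and 4 rose. NEIL3, a glycosylase, had -3.46 ± 0.09, -1.19 ± 0.08, -1.37 ± 0.08 and -1.29 ± 0.11, and TDG, the thymine glycosylase, was the 1 gene that rose in all 4. Of 8 genes of microhomology end joining, the setting of POLQ, 7, 6 and 6 fell in A549 and 6 in MDA-MB-231, and none rose. RBBP8, MRE11, NBN, PARP1, LIG3 and FEN1 fell in all 4. PARP1, LIG3, XRCC1 and FEN1 stand in both lists. Of 10 genes of non-homologous end joining, the setting of POLL, 8, 7 and 6 fell in A549, and 1, 1 and 0 rose. POLM, 1 of these 10, also stands among the other DNA polymerases. In MDA-MB-231, 5 fell and 1 rose, and XRCC5, a Ku subunit, had -0.94 ± 0.04. In A549 XRCC5 had -1.57 ± 0.07 with siRNA1, -0.33 ± 0.07 with siRNA2 and 0.13 ± 0.07 with siRNA3 (edgeR adjusted p = 0.11). The rises of POLL thus stood beside lists in which most called genes fell. Over all tested genes, 32.8%, 28.4%, 30.4% and 27.8% fell in the 4 comparisons, and 39%, 32.5%, 30.9% and 27.5% rose.

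**Figure D4:**
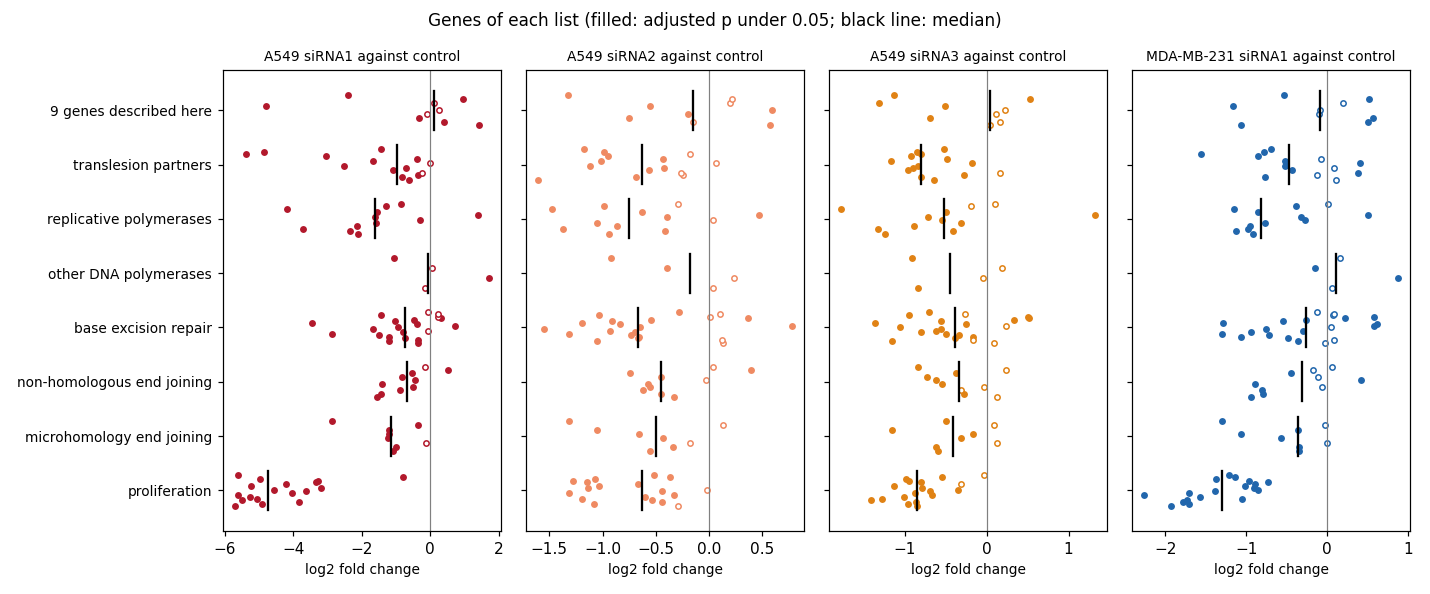
Log2 fold change of every tested gene of each list shown in the 4 comparisons with control, with its own x axis in each panel. Filled points passed an adjusted p under 0.05 and black lines are medians. The medians for proliferation lie at -4.75, -0.63, -0.86 and -1.29, and the 9 genes described here spread to both sides of 0.

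The genes whose levels ran most like each of the 9 were taken as the 3 highest Pearson correlations of log2 CPM over the 18 libraries, with the mean of each line removed, among 12188 genes. The libraries share their groups, so these are descriptions. POLQ ran with PRR11 (r = 0.998), NCAPG and KIFC1 (0.997 each). RAD18 ran with NUP50 (0.992), NSUN2 and ACYP1 (0.991 each). POLH ran with CASK (0.962), DCLK2 (0.956) and FAM105A (0.952), POLL with SPG7 (0.981), and POLB with SLC50A1 (0.98). POLK ran with FEM1B (0.964), REV3L with MAP3K1 (0.955), and REV1 with RNF8, CYBRD1 and COPB1 (0.937 each). Among the 9 themselves, POLQ and RAD18 had r = 0.869, POLL had -0.838 with POLQ and -0.83 with RAD18, and POLH had -0.634 with POLQ. These values pool both lines, and in MDA-MB-231 POLH and POLQ both fell with siRNA1 (log2 fold changes of -1.07 and -1.17).

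The expected counts of all 9 genes were whole numbers in every library, without any decimals, whereas 10.2% to 11.8% of all values in a library were not. In the RefSeq annotation (GRCh38.p14) POLH overlaps GTPBP2, POLK overlaps CERT1 and REV1 overlaps EIF5B, all protein-coding. REV3L overlaps the antisense RNA TRAF3IP2-AS1, POLI a long noncoding RNA and RAD18 a small nucleolar RNA, and POLK, REV3L, POLQ and POLB overlap pseudogenes. The library kit keeps strand, but it is unknown whether strand was used in counting. These are overlaps of annotated positions. Whether reads of an overlapping partner entered the counts of these 8 genes was not tested.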

How the data were processed

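RNA was sequenced in 18 libraries (6 groups of 3), set into groups by the cell line and siRNA in their labels. Total RNA was depleted of ribosomal RNA and made into stranded libraries (Illumina TruSeq, Ribo-Zero Gold), per the labels' protocols. The deposited files give expected counts per gene symbol, estimated with RSEM on hg19 per the submitters' processing notes. They also give TPM, which per the file headers is scaled to length and library total. Versions, aligner and annotation were not given in the sources used here. FPKM, also deposited, was left out.

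Expected counts were rounded and tested with edgeR 4.0.16 in R 4.3.3: TMM scaling, filterByExpr (minimum count 10, minimum total 15), quasi-likelihood F test and Benjamini-Hochberg adjustment over all genes. Separate fits held the 12 A549 libraries, the 6 from MDA-MB-231, and, for the interaction and the comparison of controls, the siRNA1 and control libraries of both lines. Standard errors were the absolute log2 fold change divided by the square root of F. Library totals were 30143047 to 40328208 expected counts, and the spread between libraries of a group also entered the standard errors. Alternatives were DESeq2 1.42.0 (size factors; Wald test), no filter, limma-trend (limma 3.58.1) on log2 TPM with a pseudocount of 1 or 0.1, a replicate block, other sets of libraries, and leaving out each library.

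The 9 genes, the lists and the comparisons were chosen with earlier results of these data known. Named genes were the 9, BLM, in each list the 4 with the lowest adjusted p per comparison, and the 3 genes most like each of the 9; some items that this rule or the lists gave are not reported here. POLD4, UBE2B, WDR48, POLG2, MAD2L2 (for siRNA1 and siRNA3), XRCC5 with siRNA3 and the genes called in all 4 comparisons were named after their values were seen where this rule did not give them. Replicate numbers were not taken to pair the libraries: in 0 of 7 pairs of groups was every same-numbered correlation over 0.1. With 3 libraries in a group, this rule cannot show that pairing was absent. No 2 libraries of a group agreed within sampling noise (chi-square per degree of freedom 2.9 to 97.2). On simulated counts with known changes, the A549 siRNA1 test (14966 genes) recovered 70.1%, 92.5% and 100% of 1.5-fold, 2-fold and 4-fold changes, with 6 others. In MDA-MB-231 (15026 genes) it recovered 74.6%, 95.5% and 100%, with 13 others. The interaction test (16172 genes) recovered 47.8%, 82.1% and 90.9%, with 6 others. Each simulation changed only 67, 67 and 66 genes by these folds. In the real comparisons 71.7%, 55.3% and 57.8% of all tested genes were called. The recovery rates do not cover changes that wide.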

Additional observations from a re-analysis of the deposited data

Results flagged for a closer look

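For 6 of the 9 genes the siRNA1 effect in A549 differed from that in MDA-MB-231 by the interaction test of edgeR. The difference in log2 fold change, A549 minus MDA-MB-231, was 2.54 for POLH (adjusted p = 8.68e-12), -3.59 for POLQ (adjusted p = 3.09e-12), -1.83 for RAD18 (adjusted p = 6.27e-11), -0.85 for POLI (adjusted p = 0.000243), 0.48 for POLL (adjusted p = 0.00762) and 0.40 for REV3L (adjusted p = 0.00689). POLH and POLI changed sign between the lines, POLH being higher in 3 of 3 A549 libraries and lower in 3 of 3 MDA-MB-231 libraries than every control library of the line. For POLI the A549 siRNA1 group overlapped control, and its fall was lost on TPM (-0.07, adjusted p = 0.648 by limma). POLQ and RAD18 were lower in 3 of 3 libraries in both lines. Groups of 3 libraries are too small for the test of a single far library.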

How the results depend on the processing

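Of the log2 fold changes under all alternatives, 1411 values for the 9 genes kept the direction and side of the threshold, 40 passed it newly, 46 no longer passed it and 33 changed sign. The count of the 9 genes called between siRNA2 and siRNA3 moved from 5 to 2 on TPM plus 1, 3 on TPM plus 0.1 and 3 with the replicate block, and ran from 3 to 6 when a library was left out. The replicate block, tried although the numbers were not taken to pair the libraries, lost POLL (adjusted p = 0.0517) and RAD18 (adjusted p = 0.0854) in that comparison. It changed no other call of the 9. The block could not be fitted for the comparison of the controls. On TPM plus 1, to which no TMM factors were applied, the log2 fold change of a gene shifted from its main value. The median shift over all genes was 0.236 with siRNA1 in A549. This median shift was 0.152 between siRNA1 and siRNA2, 0.256 between siRNA1 and siRNA3 and 0.106 between siRNA2 and siRNA3. It was 0.123 in the interaction and -0.251 between the controls. With all 18 libraries in the fit the median shift was -0.114 in the interaction. None of the values that changed sign passed the test. On TPM plus 1 and plus 0.1 they were REV1 with siRNA1 in A549 (0.16 and 0.17) and between siRNA1 and siRNA3 (0.0465 and 0.0492), POLB between siRNA1 and siRNA2 (0.0769 and 0.0786) and in the interaction (0.1096 and 0.1102), POLI (0.0627 and 0.0734) and POLQ (0.0771 and 0.0856) between siRNA2 and siRNA3, POLK in the interaction (0.0397 and 0.052), and POLL between the controls (-0.0934 and -0.1005). REV3L between siRNA1 and siRNA3 was -0.0193 with no filter. With all 18 libraries POLH with siRNA3 was -0.0158 and REV1 in the interaction -0.0677. Leaving out a library gave -0.0178 to 0.1256 for POLH with siRNA3, -0.1843 to 0.181 for REV3L between siRNA1 and siRNA3, -0.1696 to 0.0029 for POLI and -0.182 to 0.0347 for POLQ between siRNA2 and siRNA3, and in the interaction -0.2147 to 0.0322 for POLK, -0.0846 to 0.0774 for REV1 and -0.1975 to 0.0308 for POLB. The cause was not tested. Calls that an alternative ended are given beside each gene. Calls against control that appeared only in an alternative, besides POLB on TPM and REV3L without siRNA3 replicate 3, were REV1 with siRNA1 in A549 with all 18 libraries (-0.18, adjusted p = 0.0139), REV3L with siRNA1 with the 2 groups alone (0.22, adjusted p = 0.0416), POLL with siRNA2 on TPM (0.30, adjusted p = 0.0361 by limma), and POLB in MDA-MB-231 without control or siRNA1 replicate 3 (adjusted p = 0.0417 and 0.046). Libraries of this depth gave POLQ with siRNA1 in A549 only 101 to 129 counts, the fewest of the 9.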
